A study of Mus musculus with 9 samples.

Results

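The regions described here are the YY1 ChIP-seq peaks that mouse splenic follicular B cells showed both before and after activation in culture. A peak of the mock list was a member where it overlapped a peak of the naive list by at least 1 bp on the same chromosome, with chromosomes Y and M left out. This gave 804 shared regions among 990 mock peaks, 2348 naive peaks and 2069 tatcre peaks, 5407 in all 3 lists. The overlap of the naive and mock lists chose the members, so that overlap is a description and supports nothing by itself. The tatcre list and the RNA libraries were not used to choose them.

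YY1 is a zinc finger transcription factor that binds DNA directly and can act as an activator or a repressor. In many cell types it is known to bind close to gene starts, and it is also known to bring distant DNA sites together. In B cells it is known for roles in early development, in the germinal centre reaction and in class switching.

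All samples came from C57BL/6 mice with a floxed Yy1 gene (Yy1 fl/fl), and follicular B cells were taken from the spleen by selection on CD23. Naive cells received no reagent, mock cells went through the treatment without the recombinase, and tatcre cells received TAT-CRE, a cell-permeable Cre recombinase that deletes the floxed gene. Culture with LPS and IL-4, which activates B cells, followed for mock and tatcre cells, so the naive and mock lists differ both in handling and in activation. The series text gives 72 hours of culture with 10% serum and 3 mice, while the sample text gives 48 hours with 20% serum and names TAT-CRE for every sample, and the titles were followed. Each ChIP condition is 1 library, which leaves every ChIP difference without replicates, and the sequencing depth of the ChIP libraries is unknown. The RNA data are 3 mock and 3 tatcre libraries of 22729187 to 28230727 gene counts, and naive RNA was not analysed here.

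The RNA libraries check the labels. In mock libraries 2655, 3018 and 2542 reads were counted on Yy1, and in tatcre libraries 24, 36 and 50. No tatcre library came near a mock library, and the fall was 71-fold (107 ± 5.89 to 1.5 ± 0.51 CPM, SD, n = 3 each; edgeR adjusted p = 1.7e-08). The 6 markers of B cells fixed for this check summed to 4080 to 4350 CPM in mock and 3610 to 3808 CPM in tatcre libraries. The 5 T cell markers summed to 0.39 to 0.75 CPM in mock and 0.84 to 1.32 CPM in tatcre libraries. The 5 myeloid markers summed to 21.2 to 27.6 CPM in mock and 12.7 to 16.3 CPM in tatcre libraries, with S100a8 at 0 throughout, and the 4 plasma cell markers to 337 to 399 and 323 to 371 CPM. The groups did not overlap for the B cell, T cell and myeloid sums and overlapped for the plasma cell sum. The T cell sums are near the floor. The share of all genes whose groups do not overlap was not counted. Of all tested genes 27.1% were called between the groups (edgeR adjusted p under 0.05). Erythroid and NK cell markers summed to at most 0.22 CPM, with Hbb-bs and Nkg7 at 0 throughout. The part of these differences in the peak lists and the RNA calls was not tested.

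The genome build of the lists had to be settled before the regions could be placed. The submitters' processing notes name mm10, yet 24 of the 5407 peaks, on 5 of 20 chromosomes, end past the mm10 chromosome end, and 15 of these lie on chromosome 7. One shared region, also on chromosome 7, is among them. Set against the lengths of the earlier build mm9, no peak of any list runs past a chromosome end. By these lengths, which were entered from general knowledge of both builds with no assembly file to check them against, the positions are possible in mm9 and not in mm10. No peak file states the build. All coordinates below are printed as in the lists, counted from 1. The gene table used here is RefSeq on GRCm38, which mm10 stands for, so no peak was assigned to a gene and the planned comparison of promoter-bound genes with the RNA libraries was not made. For the same reason no sequence of these regions is shown.

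Most peaks of activated control cells overlapped a peak of naive cells. Of 990 mock peaks 804 overlapped a naive peak, 81.2% (95% exact interval 78.6 to 83.6%, counting error only). In the other direction 791 of 2348 naive peaks overlapped a mock peak, 33.7% (31.8 to 35.6%). The naive list is the longer one and covers 846 kb against 201 kb of the mock list. No shared mock peak touched more than 1 naive peak, while 10 naive peaks held more than 1 mock peak.

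Positions within the pairs are described here, since the rule required the peaks to overlap. The midpoint of the mock peak lay a median of 40.5 bp from that of its naive partner, and 641 of 804 were within 100 bp (79.7%). The signed distance had a median of 1 bp, a value that the overlap rule itself limits. Of the 804 mock peaks 689 lay wholly inside the naive peak (85.7%), and 785 were narrower than it. Only 3 mock peaks wholly covered a naive peak without lying inside it.

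At the boundary of the rule the overlap was almost all or nothing. The smallest overlaps were 6 bp for chr3:60277817-60278033 and 18 bp for chr2:164322934-164323061. Among the mock peaks that missed, chr7:16531390-16531513 lay 5 bp from the nearest naive peak and chr14:51427327-51427507 lay 24 bp from it. Only 3 of the 186 mock peaks without an overlap had a naive peak within 500 bp, and the median distance was 166669 bp.

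Shared peaks were narrow in mock cells and wider in naive cells. The shared mock peaks had a median width of 170 bp (middle 50% from 131 to 226 bp), and their naive partners 338 bp (269 to 523 bp). The naive partner was a median of 1.92 times as wide. Across the 804 pairs the 2 widths were related loosely (Pearson r = 0.53 on log10 widths, Spearman rho = 0.46), a description across peaks of the same 2 libraries. The peak files used here have no score or height column, so width is the one measure of a peak's size. Each list has its own smallest width, 104 bp in mock, 163 bp in naive and 153 bp in tatcre, so widths are not on one scale between lists.

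**Figure D1:**
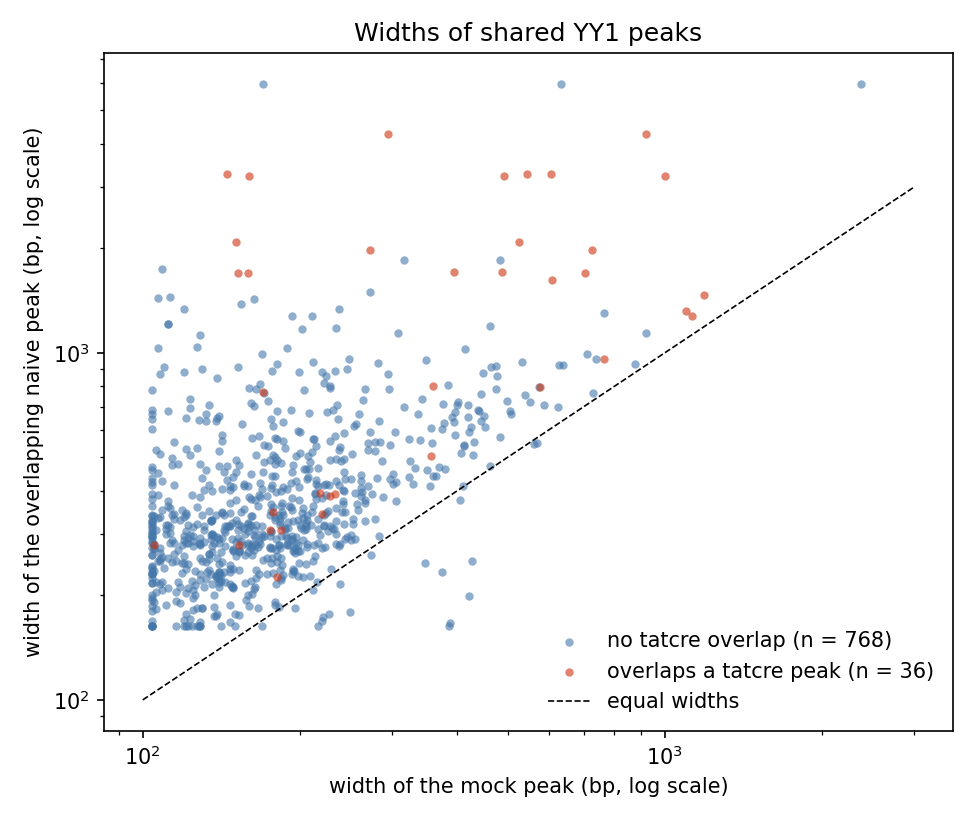
Width of each of the 804 shared mock peaks (x axis, bp, log scale) against the width of the naive peak it overlaps (y axis, bp, log scale), 1 point per peak. Points above the dashed line, 785 of 804, are wider in naive cells, and the 36 peaks that also overlap a tatcre peak (red) include many of the widest naive peaks. A naive peak that holds several mock peaks is plotted once for each. The median naive width of the red points is 1540.5 bp, against 330 bp for the others. It is 391 bp for the 15 red points outside the 2 dense runs on chromosomes 9 and 2 described below.

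The narrowest peaks were shared least often. Of the 254 mock peaks of 104 to 124 bp 162 were shared, 63.8% (57.5 to 69.7%), against 85.1 to 89.8% in the 3 wider groups when the list was divided into 4 by width. The 186 mock peaks without a naive overlap had a median width of 125 bp, and 52 of them were at the smallest width, as were 53 of the shared peaks. In the naive list the share rose from 9.88% of 587 peaks at 163 to 198 bp to 52% of 587 peaks at 275 to 425 bp, and stood at 45.2% of 586 peaks at 426 bp and more. A wide peak also meets another peak more easily, and that part of the relation was not tested.

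**Figure D2:**
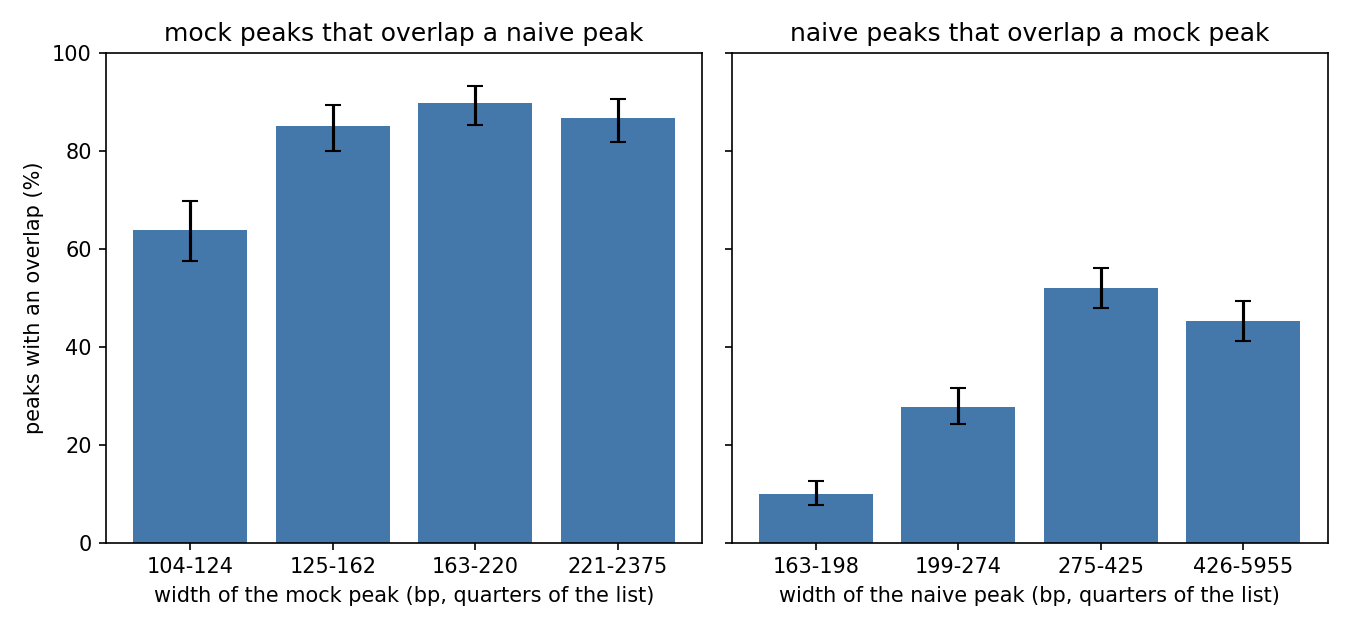
Share of peaks that overlap a peak of the other list (%), in 4 groups of peak width (bp), for mock peaks on the left and naive peaks on the right; bars start at 0 and error bars are 95% exact binomial intervals. The narrowest group has the lowest share in both lists, 63.8% in mock and 9.88% in naive.

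Examples show the range of sizes. The widest shared region was chr17:39980937-39983311, a mock peak of 2375 bp inside a naive peak of 5955 bp that also held 2 other mock peaks. No tatcre peak overlapped it. The next was chr17:13744728-13745914, of 1187 bp, within a naive peak of 1464 bp. At the other end, chr1:36502003-36502106 and chr10:39966824-39966927 had the smallest mock width of 104 bp and lay inside naive peaks of 305 and 328 bp. Both were absent from the tatcre list. In all 33 shared peaks were 500 bp or wider, against 1 of the 186 mock peaks without a naive overlap.

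Few shared regions were listed again after deletion of Yy1. Of the 804 shared peaks 36 overlapped a tatcre peak, 4.48% (3.16 to 6.15%). None of the 186 mock peaks without a naive overlap did, 0% (0 to 1.96%), and 12 of the 1557 naive peaks without a mock overlap did, 0.771% (0.399 to 1.34%). The tatcre list was not short of peaks: it holds 2069, of which 29 (1.4%) overlapped a shared region. Its peaks were mostly of one size. Of the tatcre peaks 57.7% had exactly the smallest width of 153 bp, and the 2040 without a mock overlap had a median of 153 bp. The 29 that met a shared region had a median width of 487 bp.

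A dense run of peaks at the start of chromosome 9 held 17 of those 36 regions. The run, chr9:3000015-3038252, is 38.2 kb long and holds 17 shared mock peaks, 11 naive peaks and 13 tatcre peaks, and every shared peak in it overlapped a tatcre peak. The naive peaks there were 957 to 4281 bp wide. One of them, at 3024661 to 3027928, held the mock peaks chr9:3025404-3025947, chr9:3026619-3027224 and chr9:3027718-3027862, and a tatcre peak of 3145 bp covered the same 3. A second run, chr2:98502406-98507493, held 4 shared peaks, all 4 of them in the tatcre list too. Its widest member, chr2:98506365-98507493, matched a naive peak of 1275 bp and a tatcre peak of 1267 bp. No filter for repeated sequence was applied to the lists here. Whether the 2 runs, or the widest shared region on chromosome 17, lie in such sequence was not tested.

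Outside both runs 15 of 783 shared peaks overlapped a tatcre peak, 1.92% (1.08 to 3.14%), and without the chromosome 9 run alone 19 of 787 did. Among these 15 were chr12:75904907-75905483, chr15:74916842-74917450, chr9:35112770-35113126 and chr17:13744728-13745914. On chromosome X, chrX:139917512-139917695 and chrX:166438925-166439077 each lay inside both a naive and a tatcre peak, of 308 and 286 bp and of 279 and 258 bp. Outside the runs the shared peaks in the tatcre list had a median mock width of 220 bp against 168 bp for the others. Most shared regions were isolated: only 52 of 804 had another shared region within 10 kb, and the median distance to the next one on the chromosome was 908 kb.

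Whether the shared regions lie at gene starts was examined without assigning any of them to a gene. Between 2 builds stretches of a chromosome keep their gene order and move by a fixed distance, so peaks at gene starts would meet the GRCm38 starts at some shift of the chromosome. For each chromosome the shift, up to 8 Mb either way in steps of 250 bp, was chosen on the 1511 naive peaks that no mock peak overlaps, which are not members, and the shared peaks were then counted at that shift. At these shifts 301 of 781 shared peaks lay within 500 bp of a gene start, 38.5% (35.1 to 42.1%). Of the tatcre peaks 32 of 1995 did, 1.6% (1.1 to 2.26%), and of mock peaks without a naive overlap 41 of 178, 23% (17.1 to 29.9%). For the naive peaks without a mock overlap the shifts were chosen on the shared peaks instead. At those shifts 436 of 1511 met a start, 28.9% (26.6 to 31.2%), so a place at gene starts was not particular to the shared peaks. Averaged over all shifts tried, 1.51% of the shared peaks and 1.21% of the tatcre peaks met a start. The averages were 1.36% for mock peaks without a naive overlap and 1.42% for naive peaks without a mock overlap. The interval of the tatcre share above includes its average. Chromosome 18 was not used here.

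A single shift per chromosome cannot follow several displaced stretches, so the count is a low estimate. When the shift was chosen on the shared peaks instead, it came out within 1 kb of the first one on 16 of 19 chromosomes. The chromosomes differed widely. On chromosome 16 the shift was 0, and 25 of 30 shared peaks lay within 500 bp of a start in the printed positions, with a median distance of 96.5 bp, and 28 of 30 lay within 1 kb. None of the 57 tatcre peaks of chromosome 16 did. Of its 54 naive peaks without a mock overlap 34 lay within 500 bp and 36 within 1 kb. On chromosome 6 the shared peaks at a start were 29 of 39, on chromosome 8 they were 28 of 48, and on chromosome 7, at a shift of -7.14 Mb, 20 of 72. On chromosome 14 it was 1 of 19 and on X 0 of 12, and on these and on chromosome 12 the 2 choices of shift differed.

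**Figure D3:**
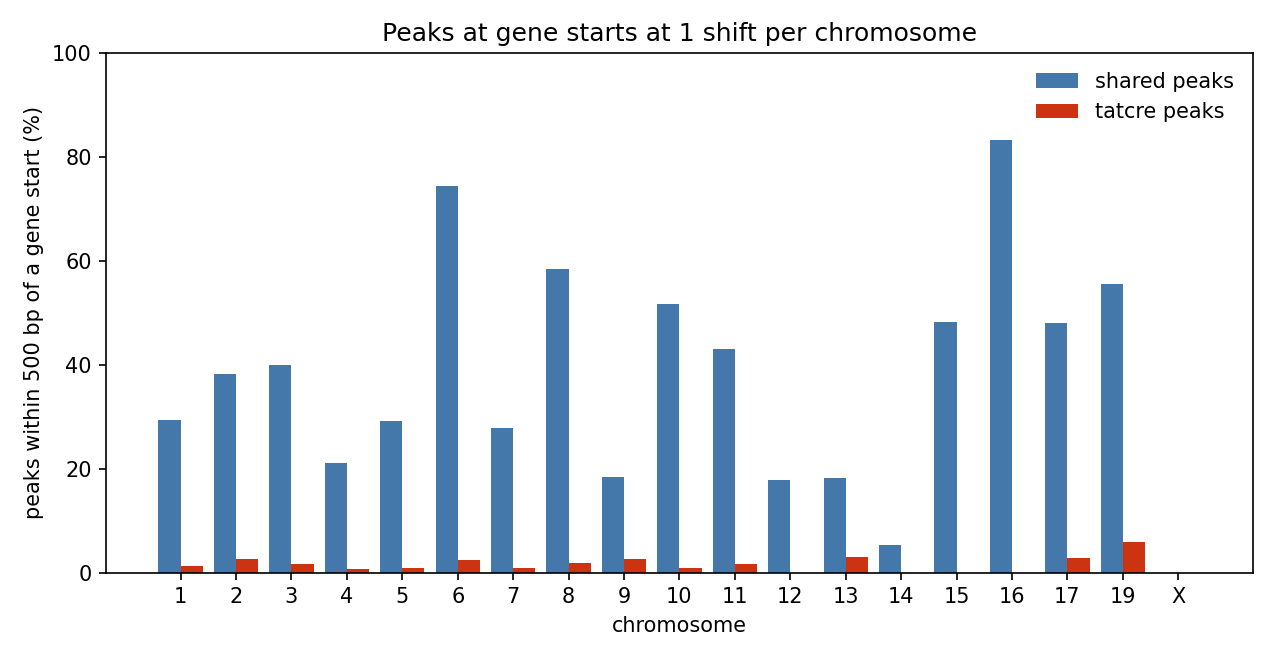
Share of peaks (%) within 500 bp of a RefSeq gene start on GRCm38 after moving each chromosome (x axis) by 1 shift chosen on naive peaks without a mock overlap, for shared peaks (blue) and tatcre peaks (red). Shared peaks reach 83.3% on chromosome 16 and 0% on X, and tatcre peaks reach at most 5.97%.

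Within the shared set the narrowest and the widest peaks were compared at the same shifts. Of 198 peaks of 104 to 131 bp 61 met a start, 30.8% (24.5 to 37.7%). Of 195 peaks of 227 bp and more 84 did, 43.1% (36 to 50.3%). The 2 groups of width between them stood at 40.4% (33.4 to 47.7%) and 40% (33.1 to 47.2%). That the intervals overlap does not show the shares to be alike, and the difference was not tested. Of the 36 shared peaks that overlapped a tatcre peak 1 was at a start, 2.78% (0.0703 to 14.5%), against 300 of 745 of the others, 40.3% (36.7 to 43.9%). Of those 36 peaks 21 lie in the 2 runs above, so they are not independent sites, although the interval counts them as such. The share at a start was not counted separately for the 15 of these 36 peaks outside the runs. With 1 of the 36 at a start, at most 1 of those 15 can be.

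By chromosome the number of shared regions ran closer to the number of expressed genes than to length. Chromosomes 7 and 11 held 72 shared peaks each, chromosome 2 held 68, chromosome 14 held 19 and X held 12. Per 10 Mb of mm9 length the density ran from 5.91 on chromosome 11 and 5.25 on chromosome 17 to 1.52 on chromosome 14 and 0.72 on X. Across the 20 chromosomes the count had a Pearson r of 0.91 (Spearman rho 0.86) with the number of genes tested in the RNA libraries and of 0.39 (0.38) with length. Without the 2 chromosomes of most extreme gene number r was 0.87. For the tatcre list r was 0.78 (rho 0.84) with tested genes and 0.70 (0.69) with length. By rank the tatcre list thus followed gene number about as closely as the shared regions did, and without the 2 extreme chromosomes its rho was 0.83 against 0.81. These are descriptions over 20 chromosomes that share their libraries, and 91.3% of tested genes had a chromosome in the gene table. The dense runs were left in all counts by chromosome, and 17 of the 49 shared peaks of chromosome 9 lie in its run.

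**Figure D4:**
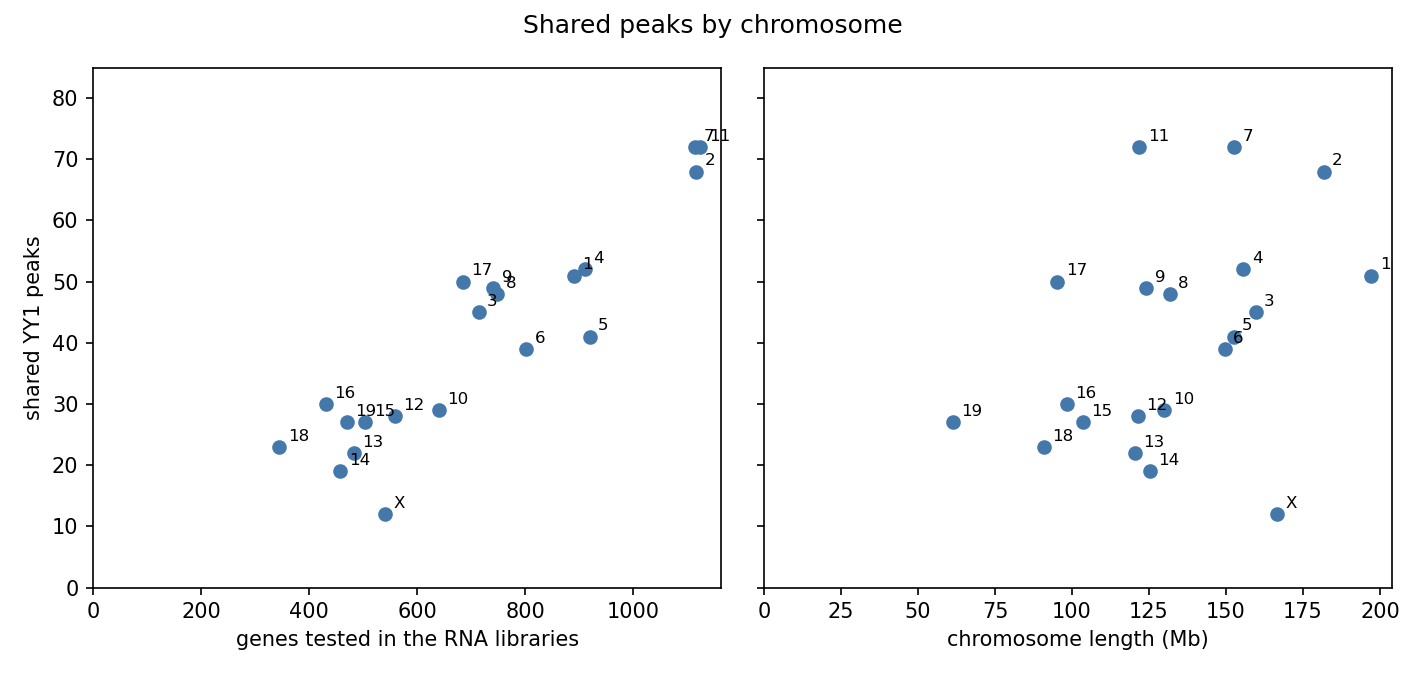
Number of shared peaks on each of 20 chromosomes (y axis, points labelled by chromosome) against the number of genes tested in the RNA libraries (left) and against chromosome length in Mb (right). The counts rise with the number of genes, from 345 genes and 23 peaks on chromosome 18 to 1124 genes and 72 peaks on chromosome 11, and X with 541 genes and 12 peaks lies lowest.

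Relative to tested genes X held the fewest shared regions, and the fewest tatcre peaks as well. There were 5.66 shared peaks per 100 tested genes over all chromosomes, with 4.15 to 7.3 on the autosomes and 2.22 on X. The tatcre list had 8.5 peaks per 100 tested genes on X and at least 10.4 on each autosome, so both were lowest on X. Chromosome 17 had the most shared peaks per gene and chromosome 14 the fewest among autosomes.

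The RNA libraries were set beside these counts only at the level of whole chromosomes, which does not need the peaks' build. Of 15546 genes tested between tatcre and mock cells 27.1% were called by edgeR's quasi-likelihood test (adjusted p under 0.05), 16.3% lower and 10.8% higher in tatcre cells. The 1679 genes called higher were 998 without mock library 2 and 1002 without tatcre library 1. In bulk libraries fewer cells of a type and less RNA per cell cannot be told apart. The balance depended on scaling: 60.2% of calls were lower with TMM, 48.5% with upper-quartile factors and 42% with library size alone. With that last scaling the median over all tested genes stood at a log2 fold change of 0.13, against 0.02 with TMM. By chromosome 14.7 to 21.8% of tested genes were lower and 8.05 to 15.3% were higher. These shares cover only the 91.3% of tested genes with a chromosome in the gene table, unlike the 16.3% and 10.8% above. The largest share higher was on chromosome 13. Chromosome 17, with the most shared peaks per gene, had 21.8% lower and 10.9% higher, and X, with the fewest, had 17.7% lower and 8.5% higher. Over the 20 chromosomes the number of shared peaks per 100 tested genes had a Pearson r of 0.25 (rho 0.39) with the share lower and of 0.11 (rho 0.14) with the share higher. The relation gene by gene was not tested.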

How the data were processed

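The members and the comparisons were chosen with earlier results of these data known. The submitters' processing notes list MACS2, HTSeq, SAMtools, TopHat2 and Trimmomatic and the build mm10; versions, peak thresholds, a ChIP control and the strand setting of the counting were not given in the sources used here. RNA counts were deposited as raw counts for each gene ID, from a stranded kit per the labels' protocols. The deposited peak files hold chromosome, start and end only. Overlaps used positions as deposited (pandas 2.3.3, numpy 2.4.6), and shares have 95% Clopper-Pearson intervals (scipy 1.17.1), which cover counting error only. A count of 0 allows up to 3 counts. Chromosome lengths of mm9 and mm10 were entered from general knowledge of these builds and were not checked against an assembly file; the build comparison and the densities per 10 Mb rest on them. The shift scan and the dense runs were chosen after seeing the data. RNA counts were filtered with filterByExpr (minimum count 10, total 15), scaled by TMM and tested with edgeR 4.0.16 under R 4.3.3 (p-values adjusted by Benjamini-Hochberg). The test was also run on simulated counts that gave every gene the same spread between libraries. That run does not measure the error of the calls made here. CPM uses TMM-scaled library sizes, except for the marker sums, which use library totals. Replicates are libraries with no stated mouse, so p-values measure the spread between libraries. Named regions were the 5 widest and the 5 narrowest shared peaks, those with most neighbours within 10 kb and the widest inside naive and tatcre peaks; others were chosen after their values were seen. Coordinates on chromosome 18 are not printed.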

Additional observations from a re-analysis of the deposited data

Results flagged for a closer look

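The mock list holds 9 peaks on chromosome Y, outside the rule for members, while the naive and tatcre lists hold 0 there. It was picked out because it is a signal in data that no comparison used, above the 3 peaks that a count of 0 allows.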

How the results depend on the processing

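Of 59 alternative values 52 kept their call or stayed within 1.5 times the reported value, and 7 moved further. Only the Yy1 fold change could change direction among these values, and it stayed negative at every setting. The balance of calls did turn over: 60.2% were lower with TMM, 48.5% with upper-quartile factors and 42% with library size alone. The 804 shared peaks were 791 where the naive peak had to cover 50% of the mock peak, 641 where midpoints had to lie within 100 bp, 804 with all chromosomes, and 378 with only peaks of at least the median width of their list. That last setting keeps 500 mock peaks, of which 75.6% were shared. The value with all chromosomes was fixed in advance, since the naive list has 0 peaks on Y and the mock list 0 on M. It is counted among the 52. The 36 shared peaks in the tatcre list were 21 with midpoints within 100 bp, and, chosen after seeing the data, 19 without the chromosome 9 run and 15 without both runs. The 301 shared peaks at a gene start were 231 within 250 bp, 329 within 1000 bp and 276 without chromosome 16. Genes higher in tatcre cells, 1679, were 2614 with library size alone and 998 to 1681 with 1 library left out, 998 without mock 2 and 1002 without tatcre 1. With the replicate number as a block 3421 genes were called against 4215; the numbers did not pair the libraries (correlations of deviations 0.08, -0.12 and 0.16), not every library correlated best with its own number, and no call on Yy1 changed. DESeq2 (1.42.0) called 4435. The planned results on promoter-bound genes were not run, because the peak positions and the gene table are of different builds. The peak files used here have no score column, so a stricter peak threshold could only be imitated by width, and with 1 ChIP library per condition the lists' error is not known.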
